A study of Homo sapiens with 39 samples.

Results

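The insulin and insulin-like growth factor (IGF) pathway was followed through 10 of its genes, chosen by name from the 63187 genes counted. They are the receptors IGF1R, IGF2R and INSR, the receptor substrates IRS1 and IRS2, and the IGF binding proteins IGFBP2, IGFBP3, IGFBP4, IGFBP5 and IGFBP6. No threshold on measured values entered the choice. All 10 were found in the count table, 9 of them passed the filter on low counts in the panel of treatments, and 8 passed it in the olaparib time course. IGFBP6 passed in neither experiment, and IGFBP4 passed in the panel but not in the time course.

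IGF1R and INSR are receptor tyrosine kinases that bind IGFs and insulin at the cell surface. When activated they phosphorylate IRS1 and IRS2, docking proteins that recruit PI3 kinase and so start AKT and mTOR signaling, which holds the FOXO transcription factors out of the nucleus. IGF2R, the cation-independent mannose 6-phosphate receptor, carries no kinase and takes IGF2 to the lysosome for degradation. The secreted IGF binding proteins hold IGFs in the extracellular fluid and can limit or extend their access to the receptors. In prostate cancer cells this pathway is known as a growth and survival route.

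The cells were C4-2B, an established human prostate cancer line that grows despite androgen deprivation and descends from LNCaP. They were kept in medium with fetal bovine serum throughout, controls included. Abiraterone, given as the acetate, and enzalutamide are hormone therapies of prostate cancer and are called ARPi here. Olaparib and talazoparib inhibit poly(ADP-ribose) polymerase (PARPi). The panel lasted 5 days and held the vehicle DMSO, each ARPi alone (5 µM abiraterone acetate or 20 µM enzalutamide), each PARPi alone (olaparib at 1 µM or talazoparib at 10 nM), and 2 combinations of these, abiraterone with olaparib and enzalutamide with talazoparib. In the time course, cells received DMSO, 1 µM olaparib or 5 µM olaparib for 1 or 5 days. Each of the 13 groups had 3 libraries, with 21 libraries in the panel and 18 in the time course. The labels do not say that replicates came from separate cultures, so the p-values measure only the spread between these libraries. A single line in culture has no stroma or circulating IGFs of its own, which limits it as a model of the pathway in a tumor.

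Total counts per library lay between 26932205 and 49833473, with a median of 37223200. All 10 listed luminal prostate markers were above 1 CPM, a count scaled by library size, in every library, with a summed level of 2922 to 5237 CPM in the panel and 3401 to 5326 CPM in the time course. Summed levels of the basal list (4 genes) reached at most 2.28 CPM in the panel and 4.10 CPM in the time course. Of these KRT15 reached 2.26 CPM and KRT14 1.81 CPM, and KRT5 and TP63 stayed at or below 0.0658 and 0.0680 CPM. Smooth muscle and fibroblast markers (8 genes) summed to 11.95 to 26.96 and 13.9 to 23.6 CPM, leukocyte and endothelial markers (7 genes) to 14.9 to 30.6 and 14.96 to 35.5 CPM, and neuroendocrine markers (5 genes) to 3.66 to 18.4 and 2.75 to 5.65 CPM. The members that reached the highest levels were COL1A1 (10.4 to 22.6 CPM), VWF (7.15 to 22.6 CPM), CD68 (2.53 to 28.05 CPM) and ENO2 (1.28 to 17.1 CPM). DES, MYH11, CD3E and CHGA reached at most 0.135, 0.243, 0.0277 and 0.0541 CPM. Several of these genes moved with treatment. Of the neuroendocrine list, ENO2 was called higher in the 4 groups with an ARPi (log2 fold changes 2.54 to 2.95) and, by less, with talazoparib (0.79) and 5 µM olaparib (0.78 at day 1 and 0.61 at day 5), and SYP was called lower in 7 of the 10 treated groups (-1.22 to -0.43). Of the leukocyte and endothelial list, PTPRC was called higher in the 4 groups with an ARPi (3.52 to 4.96), and CD68 was called higher with PARPi alone at day 5 (1.16 to 2.26) and lower with abiraterone (-0.73) and enzalutamide (-1.14). Of the smooth muscle and fibroblast list, ACTA2 was called higher in all 10 treated groups (1.04 to 4.78), and COL1A1 in 9 of them (0.19 to 0.86). Of the basal list, KRT14 was called higher with PARPi alone at day 5 (1.18 to 2.07) and lower with each ARPi alone and with enzalutamide plus talazoparib (-3.27 to -1.86). The part of these genes in the results was not tested. KLK3, which encodes prostate-specific antigen, fell with abiraterone (log2 fold change -1.58, adjusted p = 3.78e-15) and with enzalutamide (-2.25, adjusted p = 3.02e-17), as did TMPRSS2, a prostate serine protease (-2.45, adjusted p = 4.94e-13, and -2.80, adjusted p = 1.02e-13). CDKN1A, the p53 target that encodes p21, rose with olaparib (2.18, adjusted p = 7.76e-17) and with talazoparib (1.98, adjusted p = 6.39e-16). It also rose, by less, with abiraterone (0.82, adjusted p = 1.07e-10) and with enzalutamide (0.18, adjusted p = 0.00983), the latter call being lost without DMSO replicate C (adjusted p = 0.0719) and in a fit to the groups compared alone (adjusted p = 0.103).

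By GENCODE on GRCh38, IGF1R spans chr15:98648539-98964530 on the plus strand, IGF2R chr6:159969082-160113507 on the plus strand and INSR chr19:7112255-7294414 on the minus strand. IRS1 spans chr2:226731312-226799820 and IRS2 chr13:109752695-109786583, both on the minus strand. Of the binding proteins, IGFBP2 (chr2:216632828-216664436, plus strand) and IGFBP5 (chr2:216672105-216695549, minus strand) are neighbors on chromosome 2. IGFBP3 lies at chr7:45912245-45921874 on the minus strand, IGFBP4 at chr17:40443450-40457725 on the plus strand and IGFBP6 at chr12:53097436-53102345 on the plus strand. The genes that overlap IGF1R, IGF2R, IRS2 and IGFBP5, most of them antisense RNAs, held between 0 and 98 counts each over all 39 libraries.

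The 250 bases before the transcription start, as RefSeq gives it on GRCh38.p14, are shown for 4 members, those that moved most with abiraterone among the members whose RefSeq and GENCODE starts coincide: IGF1R, IRS1 and IRS2, which fell, and IGFBP5, which rose. Each is written 5′ to 3′ on the strand of the gene, and capitals mark GGGCGG or its reverse complement CCGCCC, the GC box bound by SP1 family factors.
IGF1R, chr15:98648289-98648538, plus strand: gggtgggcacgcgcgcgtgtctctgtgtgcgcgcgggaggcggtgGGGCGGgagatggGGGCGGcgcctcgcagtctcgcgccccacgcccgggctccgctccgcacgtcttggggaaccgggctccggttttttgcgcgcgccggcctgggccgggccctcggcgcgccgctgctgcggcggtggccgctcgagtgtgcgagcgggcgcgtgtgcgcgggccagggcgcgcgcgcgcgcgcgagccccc
IRS1, chr2:226799821-226800070, minus strand: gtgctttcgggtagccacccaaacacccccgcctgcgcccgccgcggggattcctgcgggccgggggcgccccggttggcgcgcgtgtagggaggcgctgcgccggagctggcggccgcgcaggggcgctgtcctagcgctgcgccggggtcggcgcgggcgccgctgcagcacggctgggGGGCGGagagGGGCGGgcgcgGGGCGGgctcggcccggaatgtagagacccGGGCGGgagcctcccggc
IRS2, chr13:109786584-109786833, minus strand: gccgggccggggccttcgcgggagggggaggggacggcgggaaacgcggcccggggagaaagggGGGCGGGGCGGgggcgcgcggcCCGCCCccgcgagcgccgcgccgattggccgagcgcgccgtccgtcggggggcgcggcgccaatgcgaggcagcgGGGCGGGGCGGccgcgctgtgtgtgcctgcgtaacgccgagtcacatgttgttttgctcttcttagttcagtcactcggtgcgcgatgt
IGFBP5, chr2:216695550-216695799, minus strand: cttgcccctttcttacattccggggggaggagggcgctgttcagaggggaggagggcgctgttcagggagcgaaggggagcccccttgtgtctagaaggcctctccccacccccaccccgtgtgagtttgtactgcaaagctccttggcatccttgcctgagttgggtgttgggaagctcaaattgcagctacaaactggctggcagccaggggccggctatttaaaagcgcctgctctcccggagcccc
The windows held 81.2% (IGF1R), 80.8% (IRS1), 76.4% (IRS2) and 61.2% (IGFBP5) G and C and contained 2, 4, 5 and 0 GC boxes, counting overlapping matches on both strands. Of the members not shown, IGFBP3 (at a RefSeq start that differs from that of GENCODE) and IGFBP4, which rose, had windows with 76% and 71.6% G and C and 2 and 1 GC boxes, and IGF2R and INSR, which moved less, had 79.2% and 78.4% with 6 and 4. IGFBP6 had 61.2% with 1, and the 3 windows of IGFBP2 had 56.8%, 69.2% and 56.4% with 1, 1 and 0. The median over all windows of this kind was 58% G and C, and 42.5% of 34943 distinct windows held a GC box. These matches describe the letters of the windows and say nothing of the binding of a factor.

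In C4-2B cells given only DMSO, IGF2R had the highest level per length of the 10 genes. Levels between genes are given as CPM per kb of exon, with CPM scaled by TMM, a method that corrects library sizes for RNA composition. In the panel's DMSO libraries IGF2R stood at 45.6 ± 0.97 CPM per kb (SD, n = 3), IGF1R at 10.1 ± 0.98, IGFBP2 at 6.38 ± 0.50 and INSR at 3.25 ± 0.076. IGFBP3 followed at 1.81 ± 0.36, IRS2 at 1.35 ± 0.074 and IRS1 at 0.733 ± 0.044 CPM per kb. From IGF2R to IRS1, the libraries of each gene lay below all libraries of the gene ranked before it, and IGFBP3 and IRS2 were nearest to each other (lowest 1.45, highest 1.40). IGFBP4 (0.0580 ± 0.019), IGFBP6 (0.0387 ± 0.032) and IGFBP5 (0.0159 ± 0.011 CPM per kb) were far lower, and their libraries overlapped from one rank to the next.

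The order was similar but not the same in the time course. With DMSO at day 1, IGF1R (7.89 ± 0.062 CPM per kb) lay just below IGFBP2 (8.17 ± 0.052), and at day 5 it lay above it (8.71 ± 0.23 against 8.28 ± 0.24) with overlapping libraries. INSR and IGFBP3 overlapped at day 1 (2.97 ± 0.085 and 2.87 ± 0.14), and at day 5 IGFBP3 was higher (4.11 ± 0.19 against 2.97 ± 0.10 CPM per kb). Dividing by the longest transcript in place of all exons left the ranks in the panel's DMSO libraries as they were and, at day 1 of the time course, swapped IGF1R with IGFBP2 and INSR with IGFBP3.

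**Figure D1:**
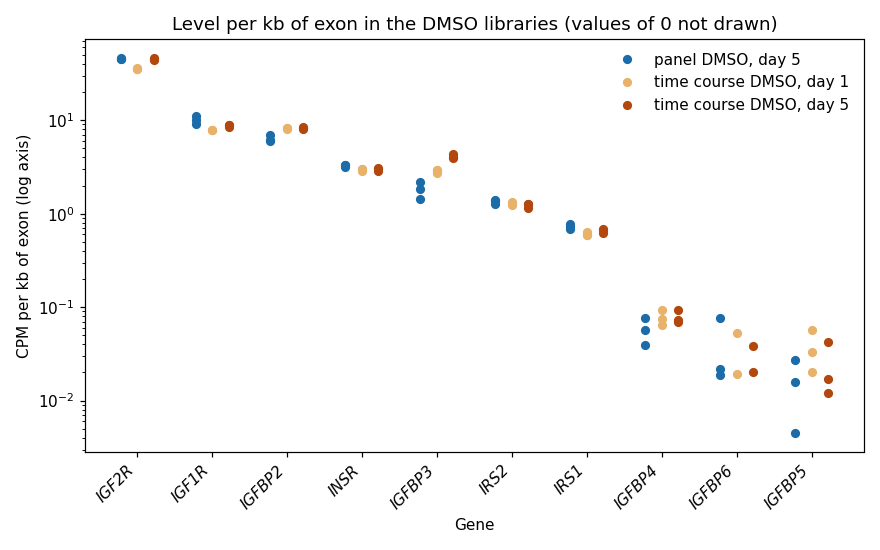
Level of each of the 10 genes in the 9 DMSO libraries, as CPM per kb of exon on a log axis, with 1 point per library and values of 0 left out. IGF2R stands highest in every group, at 35.5 CPM per kb or more on average, and IGFBP4, IGFBP5 and IGFBP6 stand below 0.1 CPM per kb.

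Changes of each member with treatment are given below by role. Each treatment was compared with DMSO of its own experiment and day by edgeR's quasi-likelihood test, with Benjamini-Hochberg adjustment over all genes tested, and a gene was called at an adjusted p under 0.05. Log2 fold changes are followed by ± their standard error. The 6 treated groups of the panel share 1 set of DMSO libraries, and the 2 olaparib doses of a day share another. Since the RNA is from whole cultures, fewer cells of one kind and less RNA per cell cannot be told apart.

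**Figure D2:**
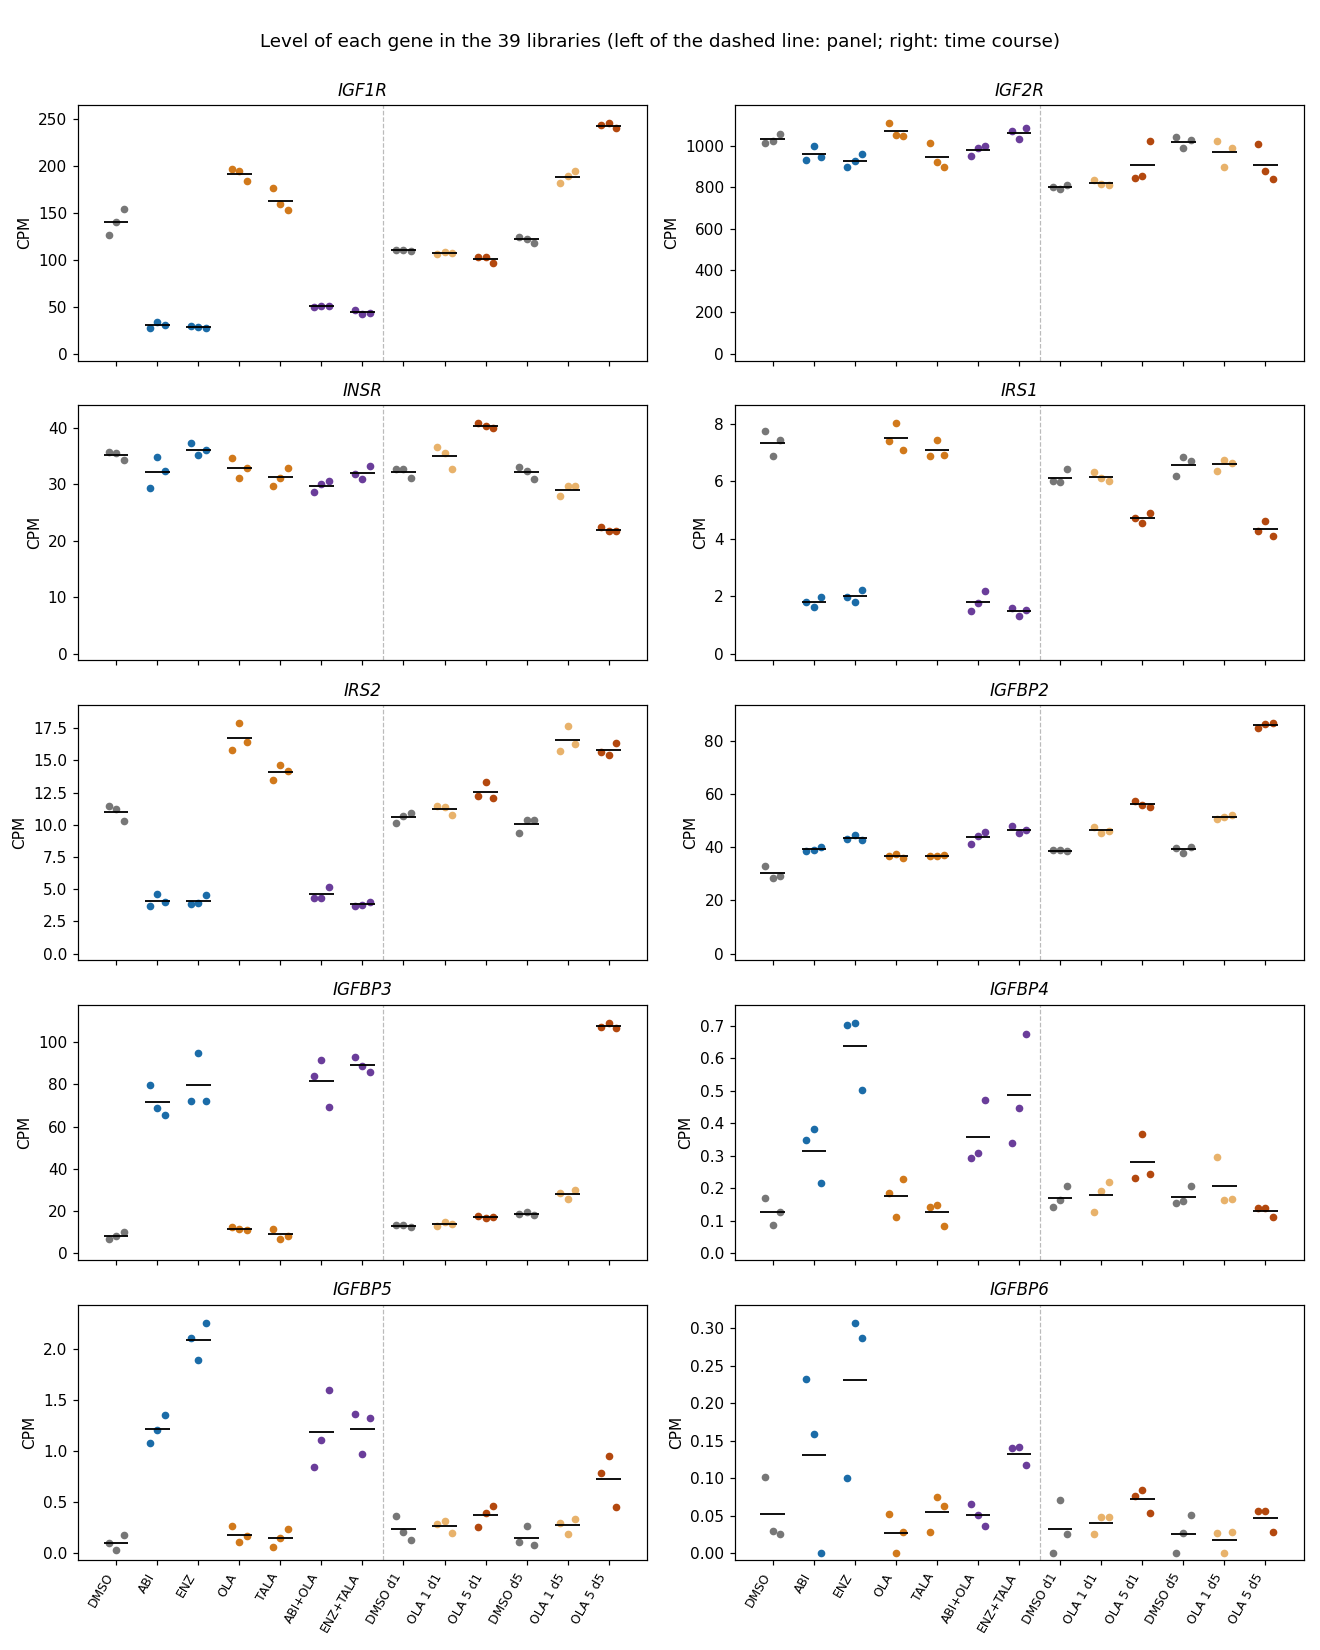
Level of each of the 10 genes in the 39 libraries, as TMM-scaled CPM on a linear axis, with 1 point per library and a bar at the mean of each group. ABI, abiraterone acetate; ENZ, enzalutamide; OLA, olaparib (1 or 5 µM in the time course); TALA, talazoparib; d1 and d5, days 1 and 5. All 12 libraries with an ARPi lie below every DMSO library of the panel for IGF1R, IRS1 and IRS2, and above every one for IGFBP3 and IGFBP5.

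Abiraterone changed all 9 members tested, 4 up and 5 down, where 52.9% of all genes tested were called (25.8% higher and 27.1% lower). IGF1R, IRS1 and IRS2 fell 2.67- to 4.58-fold, IGFBP3 rose 8.51-fold and IGFBP5, at few counts, 11.1-fold (a log2 fold change of 3.48, and 4.19 without DMSO replicate C), and the other 4 moved less. The median log2 fold change of the 9 was -0.11, and that of all genes was 0.00030. With counts scaled to the library total, 60.02% of the genes called were higher, against 48.7% here. Enzalutamide changed 8 of the 9, 4 up and 4 down, against a background of 53.3% (27% higher and 26.3% lower). Both medians lay near 0 (0.039 for the members and 0.017 for all genes).

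IGF1R, the main signaling receptor for IGFs, fell strongly with either ARPi. Its level in the panel's DMSO libraries was 127, 140.0 and 154 CPM. With abiraterone it was 27.7, 34.2 and 30.4 CPM, and with enzalutamide 29.9, 28.3 and 27.2 CPM. The highest ARPi library was far under the lowest DMSO library. The log2 fold change was -2.19 ± 0.082, adjusted p = 7.93e-13, for abiraterone and -2.31 ± 0.082, adjusted p = 3.67e-13, for enzalutamide.

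The other receptors changed little. IGF2R measured 1014, 1022 and 1055 CPM with DMSO, 929.7, 996 and 946 CPM with abiraterone and 896, 927 and 959.9 CPM with enzalutamide, with all ARPi libraries under the DMSO range. The log2 fold changes were small, -0.11 ± 0.04, adjusted p = 0.0345, and -0.15 ± 0.04, adjusted p = 0.00377. The call with abiraterone was lost without DMSO replicate B or C, abiraterone replicate A or C, enzalutamide replicate B, olaparib replicate B or C or enzalutamide plus talazoparib replicate A or C (adjusted p = 0.0508 to 0.162) and with counts scaled to the library total (adjusted p = 0.537). The call with enzalutamide was lost with counts scaled to the library total (adjusted p = 0.0898). INSR, the insulin receptor, measured 35.8, 35.5 and 34.2 CPM with DMSO, 29.3, 34.8 and 32.4 CPM with abiraterone and 37.3, 35.2 and 36.01 CPM with enzalutamide, and these ranges overlap. Its log2 fold change with abiraterone was -0.13 ± 0.054, adjusted p = 0.0405, a call lost without DMSO replicate A or B, abiraterone replicate A or C, enzalutamide replicate B, olaparib replicate C, talazoparib replicate B, abiraterone plus olaparib replicate A or enzalutamide plus talazoparib replicate A, B or C (adjusted p = 0.0549 to 0.408), with counts scaled to the library total (adjusted p = 0.35), without a filter on low counts (adjusted p = 0.0701) and in a fit to the groups compared alone (adjusted p = 0.104). With enzalutamide INSR did not pass the test (0.039, 95% interval -0.064 to 0.14).

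Both receptor substrates fell. IRS1 stood at 7.74, 6.87 and 7.42 CPM with DMSO, 1.80, 1.62 and 1.97 CPM with abiraterone and 1.97, 1.79 and 2.23 CPM with enzalutamide. The DMSO and ARPi ranges were far apart, and the log2 fold changes were -2.03 ± 0.13, adjusted p = 2.67e-15, and -1.88 ± 0.13, adjusted p = 9.54e-15. IRS2 stood at 11.4, 11.2 and 10.3 CPM with DMSO, 3.69, 4.61 and 4.03 CPM with abiraterone and 3.87, 3.89 and 4.52 CPM with enzalutamide. It fell by a smaller factor, with log2 fold changes of -1.42 ± 0.10, adjusted p = 7.12e-15, and -1.42 ± 0.10, adjusted p = 4.33e-15.

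All 4 binding proteins that could be tested rose with both ARPi. IGFBP3, the main carrier of IGFs in serum, measured 6.62, 8.32 and 9.90 CPM with DMSO, 79.8, 69.002 and 65.5 CPM with abiraterone and 71.9, 94.9 and 71.9 CPM with enzalutamide. No ARPi library came near the DMSO range, and the log2 fold changes were 3.09 ± 0.20, adjusted p = 7.99e-10, and 3.25 ± 0.20, adjusted p = 3.52e-10. IGFBP2, which is bound to the cell surface as well as secreted, rose less, from 32.97, 28.6 and 29.2 CPM to 38.6, 39.01 and 39.9 CPM with abiraterone (0.38 ± 0.048, adjusted p = 2.47e-08) and 43.2, 44.5 and 42.8 CPM with enzalutamide (0.53 ± 0.047, adjusted p = 6.56e-12).

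IGFBP5, which also binds extracellular matrix, went from near absence to a low level. It had 3, 1 and 7 counts in the DMSO libraries, 37, 38 and 44 with abiraterone and 63, 80 and 94 with enzalutamide, which is 0.0291 to 0.177, 1.07 to 1.36 and 1.89 to 2.25 CPM. The fitted log2 fold changes, 3.48 ± 0.46, adjusted p = 3.26e-09, and 4.25 ± 0.46, adjusted p = 1.1e-11, rest on few DMSO counts, and without DMSO replicate C they were 4.19 and 4.97. IGFBP4 had 5, 3 and 5 counts with DMSO, 12, 12 and 7 with abiraterone and 21, 30 and 21 with enzalutamide. Its log2 fold changes were 1.30 ± 0.49, adjusted p = 0.0206, and 2.30 ± 0.46, adjusted p = 2.74e-05. The abiraterone call for IGFBP4 was lost without DMSO replicate B or C or abiraterone replicate A or B (adjusted p = 0.0558 to 0.0899) and without a filter on low counts (adjusted p = 0.0501). IGFBP6, a binding protein that prefers IGF2, was too low to be tested, with 3, 1 and 1 counts for DMSO, 8, 5 and 0 for abiraterone and 3, 13 and 12 for enzalutamide, ranges that overlap with DMSO.

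**Figure D3:**
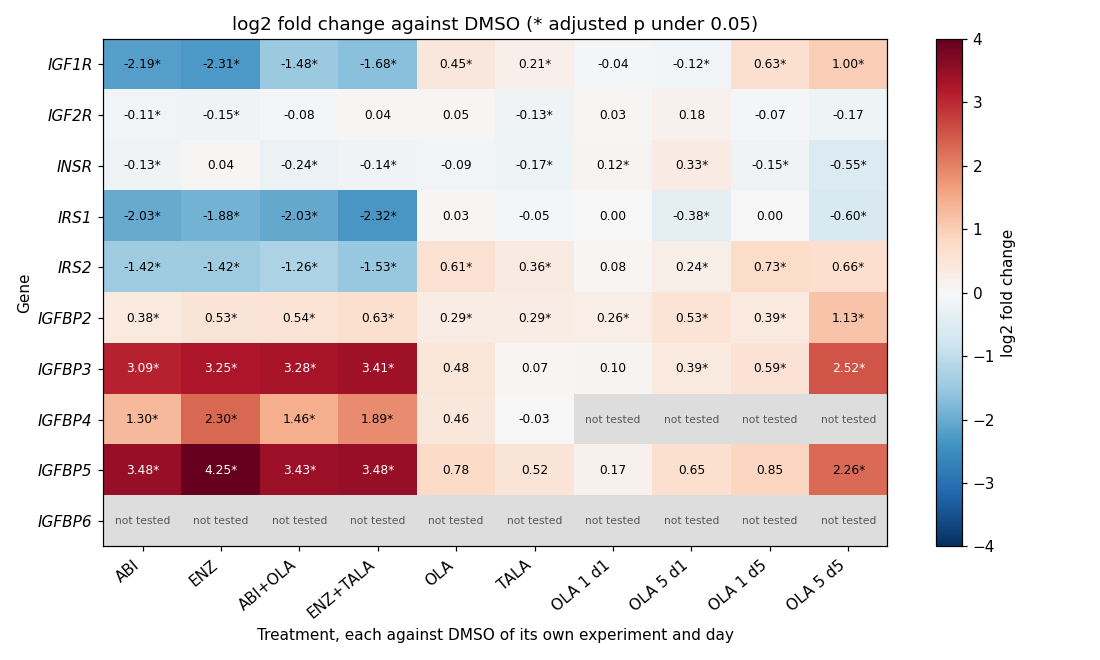
log2 fold change of each of the 10 genes against DMSO of the same experiment and day, for the 10 treated groups, as number and color, with a star where the adjusted p was under 0.05 and gray where the gene was not tested; colors are full at a size of 4. Falls of IGF1R, IRS1 and IRS2 and rises of IGFBP3, IGFBP4 and IGFBP5 fill the 4 columns with an ARPi, and without one the values of IGFBP3 (2.52) and IGFBP5 (2.26) with 5 µM olaparib at day 5 stand out.

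The 2 ARPi were also compared with each other, although their doses differ (5 µM and 20 µM). Of the 9 members, 3 differed and all 3 were higher with enzalutamide, where 19.8% of all genes were called. INSR differed by 0.17 ± 0.053, adjusted p = 0.0208, IGFBP2 by 0.15 ± 0.046, adjusted p = 0.0151, and IGFBP5 by 0.78 ± 0.28, adjusted p = 0.044. These calls are fragile. That of INSR was lost without abiraterone replicate A or enzalutamide replicate A or C (adjusted p = 0.0505 to 0.226). That of IGFBP2 was lost without abiraterone replicate A or enzalutamide replicate B (adjusted p = 0.0679 to 0.0752). That of IGFBP5 was lost without abiraterone replicate A, B or C, enzalutamide replicate A, B or C, olaparib replicate C, talazoparib replicate B, abiraterone plus olaparib replicate B or enzalutamide plus talazoparib replicate A, B or C (adjusted p = 0.0515 to 0.15) and with counts scaled to the library total (adjusted p = 0.0511). For IGF1R the 95% interval of the difference was -0.29 to 0.066 on the log2 scale, for IRS1 -0.14 to 0.44, for IRS2 -0.21 to 0.21 and for IGFBP3 -0.11 to 0.43.

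After 5 days, IGF1R and IRS2 were higher with olaparib alone than with DMSO, and IRS2 with talazoparib alone, where the IGF1R libraries overlapped DMSO. Olaparib at 1 µM changed 3 of 9 members after 5 days, all of them up, where 35.6% of all genes were called (19.6% higher and 16% lower). The members' median was 0.45 and that of all genes 0.015. With counts scaled to the library total, 42.97% of the genes called were higher, against 55.1% here. Talazoparib at 10 nM changed 5 of 9, 3 up and 2 down, where 33.8% of all genes were called (18.4% higher and 15.4% lower), with medians of 0.073 and 0.020. With counts scaled to the library total, 39.99% of the genes called were higher, against 54.5% here.

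IGF1R rose to 197, 194 and 184 CPM with olaparib, above every DMSO library, a log2 fold change of 0.45 ± 0.07, adjusted p = 0.000102. With talazoparib it measured 176, 159 and 153 CPM, which overlaps the DMSO range. The change, 0.21 ± 0.071, adjusted p = 0.031, was lost without DMSO replicate A or B, olaparib replicate A, B or C, talazoparib replicate A or B, abiraterone plus olaparib replicate A or enzalutamide plus talazoparib replicate B or C (adjusted p = 0.0508 to 0.187), with counts scaled to the library total (adjusted p = 0.0949) and in a fit to the groups compared alone (adjusted p = 0.168). IGF2R was not called with olaparib (0.052, adjusted p = 0.355). It was slightly lower with talazoparib, at 1012, 920.3 and 898 CPM (-0.13 ± 0.04, adjusted p = 0.0202), a call lost without DMSO replicate C (adjusted p = 0.0946). INSR was lower with talazoparib at 29.8, 31.1 and 32.9 CPM (-0.17 ± 0.053, adjusted p = 0.0136), and with olaparib it measured 34.7, 31.1 and 32.9 CPM (-0.095, adjusted p = 0.174). The olaparib change of INSR passed the test without olaparib replicate A (adjusted p = 0.0483) and with counts scaled to the library total (adjusted p = 0.0434).

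The substrates parted with PARPi. IRS2 rose to 15.8, 17.9 and 16.4 CPM with olaparib (0.61 ± 0.084, adjusted p = 3.61e-07) and 13.5, 14.7 and 14.2 CPM with talazoparib (0.36 ± 0.084, adjusted p = 0.000844), above the DMSO range in all 6 libraries. IRS1 passed the test with neither, at 7.40, 8.02 and 7.10 CPM with olaparib (95% interval of the log2 fold change -0.19 to 0.26) and 6.89, 7.44 and 6.91 CPM with talazoparib (-0.28 to 0.17).

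Among binding proteins, IGFBP2 rose with both PARPi. It measured 36.8, 37.6 and 35.97 CPM with olaparib and 36.8, 36.6 and 37.2 CPM with talazoparib, all above DMSO, with log2 fold changes of 0.29 ± 0.048, adjusted p = 8.67e-06, and 0.29 ± 0.047, adjusted p = 6.91e-06. IGFBP3 with olaparib, at 12.4, 11.6 and 11.1 CPM, lay above the DMSO range in all 3 libraries but did not pass the test (0.48 ± 0.23, adjusted p = 0.125). It passed in the DESeq2 Wald test (adjusted p = 0.0289) and in a fit to the groups compared alone (adjusted p = 0.00555). With talazoparib it overlapped DMSO at 11.7, 6.997 and 8.23 CPM (0.073, adjusted p = 0.855). IGFBP4 had 7, 4 and 8 counts with olaparib and 5, 6 and 4 with talazoparib, and IGFBP5 10, 4 and 6 and 2, 6 and 11, and neither gene passed the test with either drug.

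Compared directly, at doses that differ (10 nM and 1 µM), 2 of 9 members were lower with talazoparib than with olaparib, where 8.36% of all genes were called. IGF2R differed by -0.18 ± 0.04, adjusted p = 0.01, and IGF1R by -0.24 ± 0.07, adjusted p = 0.0486. The IGF1R call was lost without DMSO replicate B, abiraterone replicate C, enzalutamide replicate A, B or C, olaparib replicate A, B or C, talazoparib replicate B or C, abiraterone plus olaparib replicate A, B or C or enzalutamide plus talazoparib replicate A, B or C (adjusted p = 0.051 to 0.219) and with counts scaled to the library total (adjusted p = 0.0509). For IRS2 the difference was -0.24 ± 0.082 (adjusted p = 0.0571), and for IGFBP2 its 95% interval was -0.086 to 0.094.

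Combinations kept the direction that the ARPi gave to IGF1R, IRS1, IRS2 and the 4 tested binding proteins. Abiraterone plus olaparib changed 8 of 9 members against DMSO, 4 up and 4 down, where 62.2% of all genes were called (31.1% higher and 31.1% lower). Enzalutamide plus talazoparib also changed 8, 4 up and 4 down, where 62.4% were called (31.2% higher and 31.3% lower). The members' medians were -0.075 and 0.045, and those of all genes 0.0077 and 0.0093. Adding olaparib to abiraterone changed 2 members against abiraterone alone (29.2% of all genes), and adding talazoparib to enzalutamide changed 5 against enzalutamide alone (34.4% of all genes).

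IGF1R remained low with the combinations but stood above the ARPi alone. It measured 49.2, 50.9 and 50.6 CPM with abiraterone plus olaparib and 46.3, 42.2 and 43.1 CPM with enzalutamide plus talazoparib, above every library of either ARPi and below every DMSO library. Against DMSO the log2 fold changes were -1.48 ± 0.077, adjusted p = 4.58e-11, and -1.68 ± 0.076, adjusted p = 7.94e-12. Against the ARPi alone they were 0.71 ± 0.088, adjusted p = 1.26e-05, and 0.63 ± 0.086, adjusted p = 2.82e-05.

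IGF2R was not called against DMSO with either combination, at 949, 988 and 999 CPM (-0.075, adjusted p = 0.117) and 1073, 1032 and 1085 CPM (0.045, adjusted p = 0.352). The former passed the test without talazoparib replicate A (adjusted p = 0.0231) and in a fit to the groups compared alone (adjusted p = 0.0273). Against enzalutamide alone IGF2R was higher with talazoparib added (0.20 ± 0.04, adjusted p = 0.000877), with no overlap between the libraries. INSR was lower than in DMSO with both combinations, at 28.6, 29.97 and 30.6 CPM (-0.24 ± 0.054, adjusted p = 0.000223) and 31.8, 31.01 and 33.2 CPM (-0.14 ± 0.053, adjusted p = 0.0235). The call with enzalutamide plus talazoparib was lost without DMSO replicate A or B or enzalutamide plus talazoparib replicate A or B (adjusted p = 0.0595 to 0.107), with counts scaled to the library total (adjusted p = 0.0918) and without a filter on low counts (adjusted p = 0.0546). Against enzalutamide alone INSR fell with talazoparib added (-0.18 ± 0.052, adjusted p = 0.00792), a call lost without enzalutamide plus talazoparib replicate B (adjusted p = 0.0662).

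IRS1 measured 1.47, 1.75 and 2.17 CPM with abiraterone plus olaparib (-2.03 ± 0.14, adjusted p = 1.67e-15) and 1.58, 1.30 and 1.52 CPM with enzalutamide plus talazoparib (-2.32 ± 0.13, adjusted p = 3.66e-17). All libraries of the latter were below those of enzalutamide alone (-0.44 ± 0.15, adjusted p = 0.0163). That difference was lost without enzalutamide replicate C or enzalutamide plus talazoparib replicate B (adjusted p = 0.11 to 0.111), without a filter on low counts (adjusted p = 0.0579) and in a fit to the groups compared alone (adjusted p = 0.0676). IRS2 measured 4.33, 4.33 and 5.15 CPM (-1.26 ± 0.10, adjusted p = 7.69e-14) and 3.70, 3.75 and 4.01 CPM (-1.53 ± 0.095, adjusted p = 3.43e-16), and neither differed by the test from the ARPi alone (0.16, adjusted p = 0.284, and -0.11, adjusted p = 0.457).

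IGFBP3 reached 83.7, 91.4 and 69.2 CPM with abiraterone plus olaparib (3.28 ± 0.20, adjusted p = 2.16e-10) and 92.7, 88.6 and 85.8 CPM with enzalutamide plus talazoparib (3.41 ± 0.20, adjusted p = 1.14e-10). Its differences from the ARPi alone did not pass the test (95% intervals -0.081 to 0.47 and -0.11 to 0.42). IGFBP2 measured 41.2, 44.2 and 45.8 CPM (0.54 ± 0.047, adjusted p = 4.23e-12) and 48.1, 45.2 and 46.6 CPM (0.63 ± 0.046, adjusted p = 3.51e-14). It was slightly higher than with abiraterone alone (0.16 ± 0.046, adjusted p = 0.00835), a call lost without abiraterone replicate A or abiraterone plus olaparib replicate C (adjusted p = 0.0524 to 0.0652). IGFBP4 had 9, 12 and 13 counts (1.46 ± 0.49, adjusted p = 0.00701) and 17, 19 and 23 counts (1.89 ± 0.47, adjusted p = 0.000349).

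IGFBP5 had 26, 43 and 44 counts with abiraterone plus olaparib (3.43 ± 0.47, adjusted p = 3.15e-09) and 68, 41 and 45 with enzalutamide plus talazoparib (3.48 ± 0.46, adjusted p = 1.66e-09). Without DMSO replicate C these were 4.15 and 4.19. At 0.966 to 1.36 CPM the latter lay below enzalutamide alone (-0.77 ± 0.27, adjusted p = 0.0258), a call lost without enzalutamide replicate A or C or enzalutamide plus talazoparib replicate B or C (adjusted p = 0.0513 to 0.137). IGFBP6 had 2, 2 and 1 counts with abiraterone plus olaparib and 7, 6 and 4 with enzalutamide plus talazoparib, and was not tested.

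**Figure D4:**
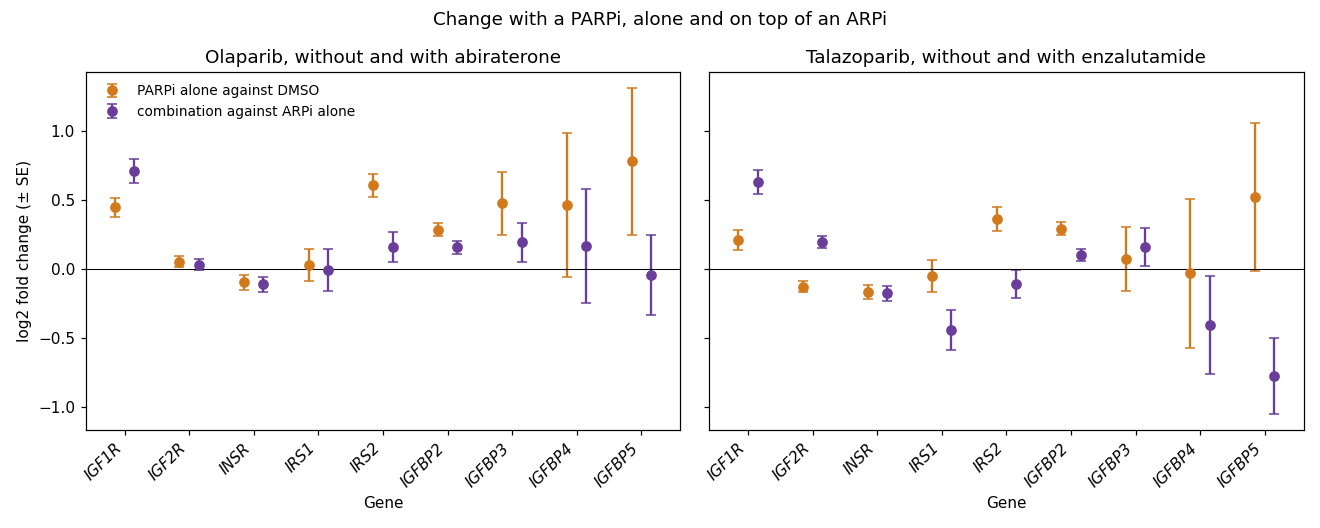
log2 fold change (± SE of the fit) of the 9 tested genes with a PARPi alone against DMSO (orange) and with the combination against the ARPi alone (purple), on a linear axis; IGFBP6 was not tested. For IGF1R the points on top of abiraterone and enzalutamide lie at 0.71 and 0.63, beside 0.45 and 0.21 for the PARPi alone. This difference did not pass the test with abiraterone and olaparib (adjusted p = 0.151), but did without DMSO replicate A. For IRS2 the points on top of the ARPi lie at 0.16 and -0.11, beside 0.61 and 0.36.

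An interaction term tested whether a combination departed from the sum of the log2 fold changes of its drugs. For abiraterone with olaparib, 1 of 9 members departed, where 12.8% of all genes did. This was IRS2, which the single agents would place at -0.81 and the combination placed at -1.26, a departure of -0.45 ± 0.14, adjusted p = 0.0238. It was lost without DMSO replicate C, abiraterone replicate B, olaparib replicate B or abiraterone plus olaparib replicate A or B (adjusted p = 0.06 to 0.0982). For IGF1R the departure was 0.26 ± 0.11 (adjusted p = 0.151). Without DMSO replicate A the departures of IGF1R and IGFBP2 also passed the test, where 13.1% of all genes did. For enzalutamide with talazoparib, 4 of 9 members departed, where 12.6% of all genes did. With counts scaled to the library total, 56.3% of the genes called were higher, against 42.2% here.

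With enzalutamide and talazoparib, IGF1R lay above the sum of the single agents (-1.68 against -2.10), a departure of 0.42 ± 0.11, adjusted p = 0.0212. IGF2R also lay above it (0.045 against -0.28), with a departure of 0.32 ± 0.057, adjusted p = 0.000914. IRS2 lay below it (-1.53 against -1.05), with a departure of -0.47 ± 0.13, adjusted p = 0.0154, and IGFBP2 too (0.63 against 0.82), with -0.19 ± 0.065, adjusted p = 0.047. Of these calls, that of IGF2R was kept without any one library. IGF1R was lost without enzalutamide replicate C (adjusted p = 0.0609), and IRS2 without enzalutamide replicate C, talazoparib replicate B or enzalutamide plus talazoparib replicate A or B (adjusted p = 0.0508 to 0.0743). IGFBP2 was lost without DMSO replicate B or C, abiraterone replicate A, B or C, enzalutamide replicate A, B or C, olaparib replicate A, B or C, talazoparib replicate A, B or C, abiraterone plus olaparib replicate A or B or enzalutamide plus talazoparib replicate A, B or C (adjusted p = 0.0517 to 0.228), with RLE scaling (adjusted p = 0.063), with counts scaled to the library total (adjusted p = 0.116), with a minimum of 1 CPM in 3 libraries (adjusted p = 0.0766) and in a fit to the groups compared alone (adjusted p = 0.0719).

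The time course asked how the response to olaparib builds with dose and time. At day 1, 1 µM changed 2 of 8 members, both up, where 15.8% of all genes were called (6.3% higher and 9.52% lower), and 5 µM changed 6, 4 up and 2 down, where 45% were called (21.6% higher and 23.4% lower). Of the genes called, 39.8% were higher with 1 µM and 47.97% with 5 µM, and 59.9% and 60.3% with counts scaled to the library total. At day 5, 1 µM changed 5 of 8, 4 up and 1 down, where 46.3% were called (23.4% higher and 22.9% lower), and 5 µM changed 7, 5 up and 2 down, where 68.2% were called (34.4% higher and 33.9% lower). The members' medians were 0.092 and 0.28 at day 1 and 0.49 and 0.83 at day 5 for 1 and 5 µM, with medians of all genes between -0.0083 and 0.015.

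Comparing the doses directly, 6 of 8 members differed between 5 and 1 µM at day 1 (28.8% of all genes) and 6 at day 5 (53.6% of all genes). The share of higher genes among these calls was 44.6% at day 1 and 49.6% at day 5, and 54.95% and 38.7% with counts scaled to the library total. The effect of olaparib differed between days for 5 of 8 members at 1 µM (29.8% of all genes) and for 7 at 5 µM (54.9% of all genes). Higher calls made up 52.3% and 49.6% of these, and 37.4% and 33.2% with counts scaled to the library total, which moved the median of all genes in the 5 µM day comparison by -0.13.

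IGF1R fell slightly with 5 µM at day 1 and rose with both doses at day 5. At day 1 it measured 111, 110.3 and 109 CPM with DMSO, 106, 109 and 107 CPM with 1 µM and 103, 103 and 96.7 CPM with 5 µM. The change was -0.039, adjusted p = 0.404, for 1 µM and -0.12 ± 0.028, adjusted p = 0.000456, for 5 µM, whose libraries were the lowest of the day. At day 5 it measured 124, 122 and 118 CPM with DMSO, 182, 189 and 194 CPM with 1 µM and 243, 245 and 239.5 CPM with 5 µM. The 3 groups of day 5 did not overlap, and the log2 fold changes were 0.63 ± 0.028, adjusted p = 1.51e-20, and 1.00 ± 0.027, adjusted p = 7.97e-28. The 2 doses differed at day 5 (0.37 ± 0.027, adjusted p = 2.57e-14), and at day 1 by -0.084 ± 0.028, adjusted p = 0.0222, a call lost without olaparib 1 µM day 1 replicate 2 or olaparib 5 µM day 1 replicate 3 (adjusted p = 0.0946 to 0.185), with counts scaled to the library total (adjusted p = 0.0945) and in a fit to the groups compared alone (adjusted p = 0.0574).

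INSR moved in opposite directions at the 2 days. At day 1 it measured 32.7, 32.7 and 31.1 CPM with DMSO, 36.5, 35.5 and 32.8 CPM with 1 µM and 40.8, 40.3 and 39.9 CPM with 5 µM. It was higher with 5 µM in every library (0.33 ± 0.04, adjusted p = 1.14e-08), and the smaller rise with 1 µM (0.12 ± 0.04, adjusted p = 0.0384) was lost without DMSO day 1 replicate 1, 2 or 3 or olaparib 1 µM day 1 replicate 1 or 2 (adjusted p = 0.0512 to 0.228), in the DESeq2 Wald test (adjusted p = 0.0728) and in a fit to the groups compared alone (adjusted p = 0.0537). At day 5 it measured 33.1, 32.4 and 30.9 CPM with DMSO, 27.9, 29.6 and 29.7 CPM with 1 µM and 22.4, 21.6 and 21.6 CPM with 5 µM. The 3 groups of that day did not overlap, and INSR fell with both doses (-0.15 ± 0.041, adjusted p = 0.00355, and -0.55 ± 0.044, adjusted p = 5.8e-14). The dose step was 0.21 ± 0.039 at day 1 (adjusted p = 5.97e-05) and -0.41 ± 0.045 at day 5 (adjusted p = 6.67e-10).

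IGF2R was called at neither dose on either day. It measured 804, 792 and 812 CPM with DMSO at day 1 and 843, 855 and 1023 CPM with 5 µM, where replicate 3 stood above the others. At day 5 it measured 1042, 987 and 1026 CPM with DMSO and 1006, 878 and 839 CPM with 5 µM, where replicate 1 overlapped DMSO. The 5 µM changes were 0.18, adjusted p = 0.0867, at day 1 and -0.17, adjusted p = 0.0764, at day 5. The day 5 change passed the test without olaparib 5 µM day 1 replicate 3 or olaparib 5 µM day 5 replicate 1 (adjusted p = 0.0152 to 0.0284) and with counts scaled to the library total (adjusted p = 0.0127), and the day 1 change with counts scaled to the library total (adjusted p = 0.0326).

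IRS1 fell with 5 µM and did not pass the test with 1 µM. With 5 µM it measured 4.71, 4.56 and 4.88 CPM at day 1, against 5.996, 5.97 and 6.42 CPM with DMSO, and 4.28, 4.63 and 4.08 CPM at day 5, against 6.19, 6.85 and 6.69 CPM. The ranges did not overlap, and the log2 fold changes were -0.38 ± 0.086, adjusted p = 0.000413, and -0.60 ± 0.087, adjusted p = 1.32e-07. With 1 µM it measured 6.34, 6.10 and 6.01 CPM at day 1 and 6.36, 6.75 and 6.64 CPM at day 5, with 95% intervals of -0.16 to 0.17 and -0.16 to 0.16. The doses differed from each other at day 1 (-0.38 ± 0.086, adjusted p = 0.000636) and at day 5 (-0.60 ± 0.088, adjusted p = 2.48e-07).

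IRS2 rose, and at day 5 the libraries of both doses overlapped. It measured 9.39, 10.3 and 10.4 CPM with DMSO, 15.7, 17.7 and 16.3 CPM with 1 µM and 15.7, 15.4 and 16.4 CPM with 5 µM at day 5. The log2 fold changes were 0.73 ± 0.06, adjusted p = 9.41e-13, and 0.66 ± 0.061, adjusted p = 3.79e-12, and the 95% interval of the dose step was -0.18 to 0.046. At day 1 it measured 10.2, 10.7 and 10.9 CPM with DMSO, 11.5, 11.4 and 10.8 CPM with 1 µM and 12.2, 13.3 and 12.1 CPM with 5 µM, and passed the test with 5 µM (0.24 ± 0.062, adjusted p = 0.00146) but not with 1 µM (0.084, adjusted p = 0.418). The dose step of IRS2 at day 1 (0.16 ± 0.061, adjusted p = 0.0495) sat at the threshold and was lost without DMSO day 1 replicate 1, 2 or 3, olaparib 1 µM day 1 replicate 1, 2 or 3, olaparib 5 µM day 1 replicate 1 or 2, DMSO day 5 replicate 2 or 3, olaparib 1 µM day 5 replicate 3 or olaparib 5 µM day 5 replicate 1, 2 or 3 (adjusted p = 0.0506 to 0.246), with RLE scaling (adjusted p = 0.0549), without a filter on low counts (adjusted p = 0.0545), in the DESeq2 Wald test (adjusted p = 0.112) and in a fit to the groups compared alone (adjusted p = 0.056).

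**Figure D5:**
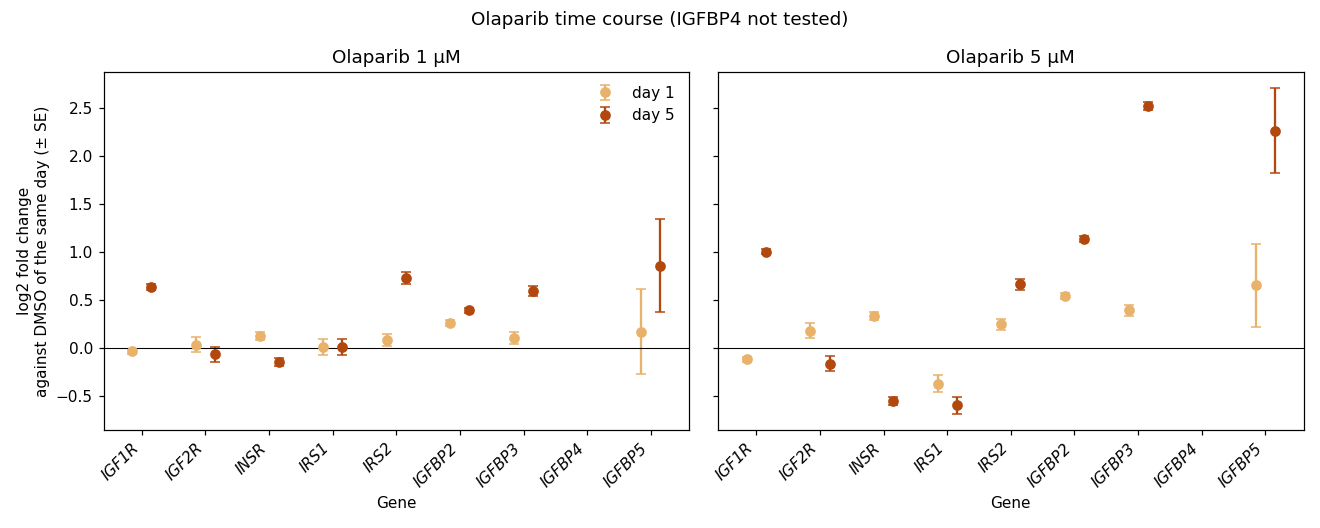
log2 fold change (± SE of the fit) of 8 genes against DMSO of the same day with 1 µM (left) and 5 µM olaparib (right), at day 1 (light) and day 5 (dark), on a linear axis; IGFBP4 and IGFBP6 were not tested. INSR lies above 0 at day 1 and below it at day 5 at both doses, and IGFBP3 and IGFBP5 with 5 µM at day 5 (2.52 and 2.26) lie highest.

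IGFBP3 rose at day 5 with both doses, far more with 5 µM. With DMSO it measured 13.5, 13.5 and 12.4 CPM at day 1 and 18.4, 19.8 and 18.1 CPM at day 5. At day 1 it was 13.1, 15.1 and 13.98 CPM with 1 µM (0.10, adjusted p = 0.293) and 17.5, 16.6 and 17.4 CPM with 5 µM (0.39 ± 0.058, adjusted p = 7.51e-07). At day 5 it was 28.5, 25.9 and 30.2 CPM with 1 µM and 107, 109 and 107 CPM with 5 µM. All 6 treated libraries of day 5 were above DMSO, by 0.59 ± 0.05, adjusted p = 2.17e-12, and 2.52 ± 0.045, adjusted p = 2.96e-34, and the step between doses was 1.93 ± 0.042, adjusted p = 9.47e-31. At day 1 that step was 0.29 ± 0.057 (adjusted p = 0.000124).

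IGFBP2 rose in all 4 olaparib groups. It went from 38.8, 38.99 and 38.5 CPM with DMSO to 47.7, 45.5 and 46.1 CPM with 1 µM and 57.5, 55.7 and 55.1 CPM with 5 µM at day 1. At day 5 it went from 39.5, 38.02 and 40.2 to 50.7, 51.4 and 52.03 and 84.98, 86.6 and 86.7 CPM. No group overlapped another of the same day. The log2 fold changes were 0.26 ± 0.031, adjusted p = 9.35e-08, and 0.53 ± 0.031, adjusted p = 4.65e-17, at day 1 and 0.39 ± 0.031, adjusted p = 3.34e-13, and 1.13 ± 0.029, adjusted p = 9.03e-29, at day 5. The dose step was 0.27 ± 0.03 at day 1 (adjusted p = 2.48e-09) and 0.75 ± 0.029 at day 5 (adjusted p = 8.24e-23).

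The remaining binding proteins were near their detection limit. IGFBP5 had 13, 9 and 5 counts with DMSO, 11, 13 and 8 with 1 µM and 10, 14 and 17 with 5 µM at day 1. At day 5 it had 5, 10 and 3 counts with DMSO, 11, 7 and 12 with 1 µM and 28, 34 and 16 with 5 µM. It was called with 5 µM at day 5 (2.26 ± 0.44, adjusted p = 1.08e-05, and 2.90 without DMSO day 5 replicate 2) and not with 1 µM (0.85 ± 0.49, adjusted p = 0.145), which passed without DMSO day 5 replicate 2 (adjusted p = 0.0288). At day 5 the doses differed by 1.41 ± 0.39, adjusted p = 0.00216. IGFBP4 had 7, 6 and 8 counts with DMSO at day 5 and 5, 5 and 4 with 5 µM, and between 5 and 13 counts in every library of day 1. IGFBP6 had at most 3 counts in any time course library.

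The vehicle cultures themselves changed between days in 3 of the 8 members, all higher at day 5, where 24.5% of all genes were called. IGF1R differed by 0.14 ± 0.028, adjusted p = 0.000178, IGF2R by 0.34 ± 0.078, adjusted p = 0.0059, and IGFBP3 by 0.52 ± 0.057, adjusted p = 8.87e-09. With counts scaled to the library total, 57.7% of the genes called were higher, against 45.3% here.

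Olaparib at 1 µM for 5 days was measured in both experiments, each with its own DMSO. None of the 9 members tested differed in effect between the experiments by edgeR's test, where 1.94% of all genes did, and DESeq2's Wald test also gave 0. At an unadjusted p under 0.05 there were 2 of the 9, IGF1R (-0.20, adjusted p = 0.215) and IGFBP2 (-0.12, adjusted p = 0.361), which were smaller in the panel. Without DMSO replicate A of the panel the difference of IGF1R passed the test, where 1.45% of all genes did. For IGFBP3, called in the time course and not in the panel, the 95% interval of the difference was -0.57 to 0.32.

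The ligands were read beside their receptors. IGF1 measured 57.9, 67.4 and 66.9 CPM with DMSO, 20.6, 21.2 and 20.8 CPM with abiraterone and 36.5, 35.97 and 36.4 CPM with olaparib. It fell in every panel group, with log2 fold changes of -1.62 ± 0.055 for abiraterone, -1.94 ± 0.055 for enzalutamide, -0.82 ± 0.051 for olaparib, -0.87 ± 0.05 for talazoparib, -1.95 ± 0.055 for enzalutamide plus talazoparib and -1.85 ± 0.056 for the other combination (adjusted p at most 3.88e-15). In the time course IGF1 changed by -0.13 ± 0.029 and -0.35 ± 0.029 at day 1 and -0.75 ± 0.03 and -1.67 ± 0.034 at day 5 for 1 and 5 µM, reaching 22.6, 24.1 and 21.9 CPM from 72.1, 72.8 and 73.003 CPM.

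IGF2 was low and rose in every treated group. At day 1 of the time course it measured 1.17, 1.11 and 1.14 CPM with DMSO and 8.81, 9.26 and 8.74 CPM with 5 µM olaparib, the largest change of the pathway genes listed with that treatment (2.97 ± 0.14, adjusted p = 1.34e-20). At day 5 the 5 µM change was 2.07, adjusted p = 1.01e-16. In the panel the changes were 0.45, adjusted p = 0.0224, with abiraterone, 0.96, adjusted p = 4.49e-06, with enzalutamide, 1.26, adjusted p = 5.79e-08, with olaparib and 1.13, adjusted p = 6.26e-07, with talazoparib. The abiraterone call was lost without DMSO replicate A or B or abiraterone replicate B (adjusted p up to 0.128) and in a fit to the groups compared alone (adjusted p = 0.0530). Some IGF2 reads could belong to the INS-IGF2 readthrough gene, which overlaps it, so its counts are uncertain. INS had no count in any library.

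Of 60 other genes of the pathway, 54 were tested in each experiment. They comprise ligands, further binding proteins and their proteases, receptor adaptors, PI3 kinase, AKT and mTOR components and FOXO factors. Counts follow as higher and lower, each with the shares of all genes called higher and lower. With abiraterone they were 24 and 16 (25.8% and 27.1%), with enzalutamide 25 and 16 (27% and 26.3%), with olaparib 22 and 13 (19.6% and 16%) and with talazoparib 16 and 16 (18.4% and 15.4%). Abiraterone plus olaparib gave 27 and 16 (31.1% and 31.1%), and enzalutamide plus talazoparib 27 and 18 (31.2% and 31.3%). In the time course 1 µM gave 7 and 5 at day 1 (6.3% and 9.52%) and 20 and 14 at day 5 (23.4% and 22.9%). The higher dose gave 16 and 15 at day 1 (21.6% and 23.4%) and 27 and 16 at day 5 (34.4% and 33.9%).

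Among extracellular partners of the binding proteins, HTRA1, a secreted protease that cuts IGF binding proteins, rose with abiraterone (2.51 ± 0.20, adjusted p = 1.88e-13), enzalutamide (2.56, adjusted p = 9.41e-14), abiraterone plus olaparib (3.03, adjusted p = 4.66e-16) and enzalutamide plus talazoparib (3.01, adjusted p = 4.78e-16). STC1 and STC2 encode stanniocalcins, inhibitors of the proteases that release IGFs from binding proteins. STC1 rose with abiraterone (2.19 ± 0.13, adjusted p = 1.09e-14), and STC2 fell with 1 µM olaparib after 5 days in the panel (-0.70, adjusted p = 1.2e-14) and in the time course (-0.78, adjusted p = 2.18e-21). Other groups are not given for these genes, since at most the 3 largest changes per comparison are named.

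Below the receptors, FOXO6, a transcription factor inhibited by AKT, rose with all 4 treatments that held an ARPi (2.06, 1.961, 1.83 and 1.94 in the order of abiraterone, enzalutamide and the combinations with each, adjusted p at most 9.16e-16). It also rose with talazoparib (0.67, adjusted p = 4.31e-05) and with 5 µM olaparib at day 1 (0.75, adjusted p = 3.73e-05). Per comparison at most the 3 largest changes are named, so each gene of this paragraph may have changed in other groups too. FOXO3 rose with 5 µM olaparib at day 5 (1.46 ± 0.029, adjusted p = 2.2e-32). PIK3R3, a regulatory subunit of PI3 kinase, rose with olaparib at day 1, by 0.25, adjusted p = 5.78e-07, for 1 µM and 0.74, adjusted p = 1.22e-20, for 5 µM. With counts scaled to the library total, PIK3R3 ranged from 61.5 to 248 CPM over all 39 libraries, and its other groups are not given here. With 1 µM at day 1, PIK3R2, another such subunit, rose (0.17, adjusted p = 0.000151) and PHLPP2, a phosphatase of AKT, fell (-0.22, adjusted p = 0.000433).

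The genes whose group means over the 7 panel groups ran most like those of a member were found by Pearson's correlation of mean log2 CPM, among 13065 genes. These correlations are over groups that share libraries and scaling and are given as a description. For IGF1R they were AZGP1P1 (r = 0.997) and SNAP23 (0.996), with r = 0.600 and 0.997 over the 6 time course groups. For IRS1 DNM1L is given (0.998 in the panel and 0.604 in the time course), and for IRS2 they were ZDHHC9 (0.999 and 0.804) and ALG1 (0.997 and -0.147). For IGFBP3 they were IRX3 (0.999 and 0.991) and GUSBP13 (0.998 and 0.839), and for IGFBP5 MORN3 (0.996 and -0.017) and HAP1 (0.996 and 0.343). For INSR they were GPANK1 (0.987 and 0.980) and MLLT10 (0.980 and -0.346), and for IGF2R UBR3 (0.931 and 0.235) and POLR1A (0.906 and -0.765). For IGFBP2 and IGFBP4 the named genes were SNX22 (0.992 and 0.707) and FAM168A (0.991 in the panel), and the other of the 2 most alike had no symbol. For SNAP23, GPANK1 and IRX3 the likeness was above 0.98 in both experiments.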

How the data were processed

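C4-2B cells gave 39 RNA libraries, 21 from a 5-day drug panel and 18 from an olaparib time course, with 3 per group. Libraries were stranded mRNA-seq (dUTP). Per the labels and the submitters' processing notes, the authors used Trim Galore for trimming, STAR for alignment (GRCh38) and Salmon for quantification. The estimated counts were deposited as whole numbers without normalization, so ambiguous reads are shared between like genes by Salmon's model, and the rounding is not described. No further normalization was applied before the analysis.

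Of 63187 gene IDs, 62666 were paired with symbols from GENCODE v44, an earlier release than the one used by the authors, and 521 were not. Counts were scaled with TMM, filtered by group with filterByExpr and fitted over all groups of an experiment by the quasi-likelihood method of edgeR 4.0.16 in R 4.3.3, without covariates. P-values were adjusted by the Benjamini-Hochberg method over 18625 genes in the panel and 18502 in the time course. The contrast between experiments was fitted over all 39 libraries and 19392 genes. An adjusted p under 0.05 was the threshold. Standard errors and 95% intervals are normal approximations on the log2 scale. Total counts of 26932205 to 49833473 per library limit the precision for IGFBP4, IGFBP5 and IGFBP6. Counts of replicates differed by more than sampling noise (chi-square per degree of freedom 2.18 to 6.03), so none was counted as a duplicate.

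The members and gene lists were chosen with earlier results of these data known. All members are named. Of the other pathway genes, the text names the ligands and, per comparison with DMSO, at most the 3 with the largest absolute change past the threshold, provided the group with more counts averaged 100 or more, and per member the 2 genes of most like pattern, of which 1 is not reported here. KLK3, TMPRSS2 and CDKN1A served as checks of drug action. Scripts were tested on simulated data. Alternatives were RLE and total-count scaling, other filters on low counts, a minimum size of the log2 fold change of 0.5, DESeq2 1.42.0, fits to only the groups compared, a replicate block, and leaving out each library in turn. Promoter sequences came from RefSeq on GRCh38.p14, where all 10 members matched.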

Additional observations from a re-analysis of the deposited data

Results flagged for a closer look

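The effect of olaparib against DMSO differed between day 1 and day 5 in the time course, by the interaction term of edgeR's quasi-likelihood test, for 5 of 8 members at 1 µM, where 29.8% of all genes differed, and 7 of 8 at 5 µM, where 54.9% did. Differences are given as the day 5 effect minus the day 1 effect on the log2 scale, ± SE. For the receptors, IGF1R differed by 0.67 ± 0.039, adjusted p = 4.98e-16, at 1 µM and 1.12 ± 0.039, adjusted p = 6.22e-24, at 5 µM. INSR differed by -0.26 ± 0.058, adjusted p = 0.000417, at 1 µM and -0.88 ± 0.059, adjusted p = 1.63e-15, at 5 µM. IGF2R differed at 5 µM by -0.34 ± 0.11, adjusted p = 0.0185, a call lost without olaparib 5 µM day 5 replicate 3 (adjusted p = 0.0542). The substrate IRS2 differed by 0.64 ± 0.087, adjusted p = 2.2e-07, at 1 µM and 0.42 ± 0.087, adjusted p = 9.05e-05, at 5 µM.

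Among binding proteins, IGFBP3 differed by 0.49 ± 0.078, adjusted p = 4.83e-06, at 1 µM and 2.13 ± 0.074, adjusted p = 4.92e-24, at 5 µM. IGFBP2 differed by 0.13 ± 0.044, adjusted p = 0.0246, at 1 µM and 0.60 ± 0.042, adjusted p = 8.75e-15, at 5 µM. The 1 µM call was lost without olaparib 1 µM day 1 replicate 2 or 3, DMSO day 5 replicate 2 or olaparib 1 µM day 5 replicate 3 (adjusted p = 0.0504 to 0.0913), with counts scaled to the library total (adjusted p = 0.182), without a filter on low counts (adjusted p = 0.0595) and in a fit to the groups compared alone (adjusted p = 0.0622). IGFBP5 differed at 5 µM by 1.61 ± 0.62, adjusted p = 0.0238 (2.25 without DMSO day 5 replicate 2), a call lost without DMSO day 1 replicate 1, olaparib 5 µM day 1 replicate 1, DMSO day 5 replicate 1 or 3 or olaparib 5 µM day 5 replicate 2 (adjusted p = 0.0644 to 0.14) and in the DESeq2 Wald test (adjusted p = 0.0592).

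In the panel, the effect of a PARPi differed with and without the ARPi for 4 of 9 members with talazoparib and enzalutamide, where 12.6% of all genes differed, and for 1 of 9 with olaparib and abiraterone, where 12.8% did. With talazoparib and enzalutamide the difference was 0.42 ± 0.11 for IGF1R, 0.32 ± 0.057 for IGF2R, -0.47 ± 0.13 for IRS2 and -0.19 ± 0.065 for IGFBP2. With olaparib and abiraterone it was -0.45 ± 0.14 for IRS2. Of these 5 calls, that of IGF2R was kept without any one library, and the others were lost without at least 1, IGFBP2 without 19 of 21 (adjusted p up to 0.0609 for IGF1R, 0.0743 and 0.0982 for IRS2 and 0.228 for IGFBP2).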

How the results depend on the processing

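Of 86 comparisons of a member with DMSO, 61 were called (in the 10 treatments, 15.8% to 68.2% of all genes were called), 53 of them under every alternative in which they were tested, other than the minimum size of 0.5, and 8 were lost under at least 1 of these. IGFBP4, and IGFBP5 with 5 µM at day 5, had no value with a minimum of 1 CPM in 3 libraries, and IGFBP4 with abiraterone and with its combination had none in a fit to the groups compared. Of the 25 not called, 6 were called under at least 1 of these. With counts scaled to the library total, IRS1 turned from a small rise to -0.0088 with olaparib in the panel and to -0.020 with 1 µM at day 5, neither called, and 16 of 130 mean levels moved by more than 1 SD. The cause was not tested. Leaving out 1 library at a time, uncalled changes crossed 0 for IRS1 (olaparib, panel, -0.032 to 0.070; 1 µM, day 1, -0.018 to 0.040; 1 µM, day 5, -0.041 to 0.033), for IGFBP3, IGFBP4 and IGFBP5 with talazoparib (-0.15 to 0.23, -0.23 to 0.19 and -0.012 to 1.24), and for IGFBP5 with 1 µM at day 1 (-0.12 to 0.60).

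With a minimum size of 0.5 for the log2 fold change, which by construction keeps fewer genes, the number of members called, with the share of all genes called, fell to 1 for olaparib (8.02%), 0 for talazoparib (7.32%), 1 for olaparib added to abiraterone (5.66%), 2 for talazoparib added to enzalutamide (7.34%), 0 for the interactions with abiraterone (2.24%) and with enzalutamide (2.66%), 1 for enzalutamide against abiraterone (3.67%) and 0 for talazoparib against olaparib (0.295%). In the time course it fell to 0 for 1 µM (1.52%) and 1 for 5 µM (9.51%) at day 1, 3 for 1 µM at day 5 (11.9%), 0 for the dose step at day 1 (4.2%), 2 for the day effect at 1 µM (7.26%) and 1 for DMSO between days (2.69%). Talazoparib against olaparib gave 1 with total-count scaling (8.24%). At day 1, 1 µM gave 1 with DESeq2 (14.3%) and 1 in a fit to the groups compared (14.7%).

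Leaving out 1 library at a time, where in many fits 1 more member passed the filter (10 in the panel, 9 in the time course), the count ran as follows, with the share of all genes called in the fits whose count moved by more than 1.5 times. It was 1 to 2 for olaparib added to abiraterone (24.6%), 3 to 6 for talazoparib added to enzalutamide (28.1% to 29.1%), 0 to 3 and 1 to 4 for the interactions with abiraterone (9.76% to 13.1%) and with enzalutamide (9.06% to 11.1%), 0 to 3 for enzalutamide against abiraterone (15.1% to 16.7%), 1 to 3 for talazoparib against olaparib (3.12% to 7.9%), 1 to 2 for 1 µM at day 1 (10.2% to 14.3%) and 0 to 1 for olaparib between experiments (1.45%).

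No consistent pairing of the samples by replicate number was seen, though a weak pairing could fail the rule used. In 0 of 21 panel and 0 of 15 time course pairs of groups did every same-numbered pair deviate together with a correlation over 0.1 (medians -0.0073 and -0.0029). With a replicate block, talazoparib against olaparib gave 1 member (7.87% of all genes), and the block also moved IGF1R with talazoparib to an adjusted p of 0.0501, IGF2R with abiraterone to 0.0523, IGFBP2 in the enzalutamide interaction to 0.0566 and IGF1R in talazoparib against olaparib to 0.0769. It ended no other call of a member. Depth limits IGFBP4, IGFBP5 and IGFBP6, which had 94 counts or fewer in any library.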
